A study of Mus musculus with 46 samples.

Results

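The 9 genes described here encode the receptors of type I and type II interferon (Ifnar1, Ifnar2, Ifngr1 and Ifngr2), the Janus kinases bound to them (Jak1, Jak2 and Tyk2) and 2 suppressors of that signal (Socs1 and Socs3). They were taken by name from a table of raw RNA-seq read counts for 54134 genes covering 46 mouse libraries. Each was made from microglia, macrophages that live in the brain. All 9 had a row and passed the filter on low counts, as did 12121 genes in all. The mice were 5xFAD, labelled AD, a transgenic model that carries human genes with familial Alzheimer's disease mutations under a neuronal promoter, or wild type (WT). Each genotype was given HAMSAB (a high-amylose maize starch esterified with acetate and butyrate, which gut bacteria can release), a diet with zero fiber, or a control diet. There were 8 libraries each of HAMSAB AD, HAMSAB WT, zero fiber AD, control AD and control WT mice and 6 of zero fiber WT mice, with females (F) and males (M) in every group. The sources used here do not state the age, the time on the diet, how the cells were isolated or how many mice went into a library. A p-value therefore weighs a difference against the spread among libraries, which may be technical.

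Total counts lay between 1174514 and 6950429 in 44 libraries and were 783849 and 52114 in 2 zero fiber AD males. Libraries are named by group, sex and a replicate number in accession order, which pairs nothing. At the lowest depth, zero_fiber_AD_M replicate 2, 3 counts correspond to 46.4 CPM, so Socs1 (0 counts), Socs3 (2 counts) and Ifnar1 (3 counts) could not be measured there. Against its label as female, zero_fiber_AD_F replicate 1 held 142 CPM of the Y-linked Ddx3y and 0.213 CPM of Xist. The summed level of 10 microglial markers ran from 25700 to 42200 CPM over all libraries, and that of 10 lymphocyte markers was at most 3.7 CPM.

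Type I interferons (alpha and beta) are sensed by IFNAR1 with IFNAR2, to which TYK2 and JAK1 are bound. Type II interferon (gamma) is sensed by IFNGR1, the ligand-binding chain bound to JAK1, with IFNGR2, bound to JAK2. The kinases phosphorylate STAT proteins, which enter the nucleus and switch on interferon-stimulated genes. SOCS1 and SOCS3 are made in response and damp the kinases. Microglia respond to both kinds of interferon.

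The binding chain of the interferon gamma receptor was by far the most abundant of the 9 transcripts. Levels between genes were compared as CPM (counts scaled to a common library size, adjusted with the trimmed mean of M values, TMM) per kb of annotated exon. Ifngr1 averaged 703 ± 178 CPM per kb and its partner Ifngr2 102 ± 17.4 CPM per kb (SD, n = 46). Ifnar2 (37.1 ± 7.23 CPM per kb) and Jak1 (36.6 ± 6.4 CPM per kb) came next. Ifnar2 exceeded Jak1 in 23 of 46 libraries, so the order of these 2 is not resolved. Ifnar1 followed at 12.5 ± 1.51 CPM per kb, then Tyk2 at 8.42 ± 1.54 and Socs3 at 7.47 ± 1.68 CPM per kb. Tyk2 exceeded Socs3 in 29 libraries. Jak2 (5.33 ± 1.85 CPM per kb) and Socs1 (3.02 ± 0.999 CPM per kb) were lowest, with Jak2 above Socs1 in 42 libraries. By CPM, Ifngr1 stood at the 99.7th and Socs1 at the 26.6th percentile of the 12121 genes.

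**Figure D1:**
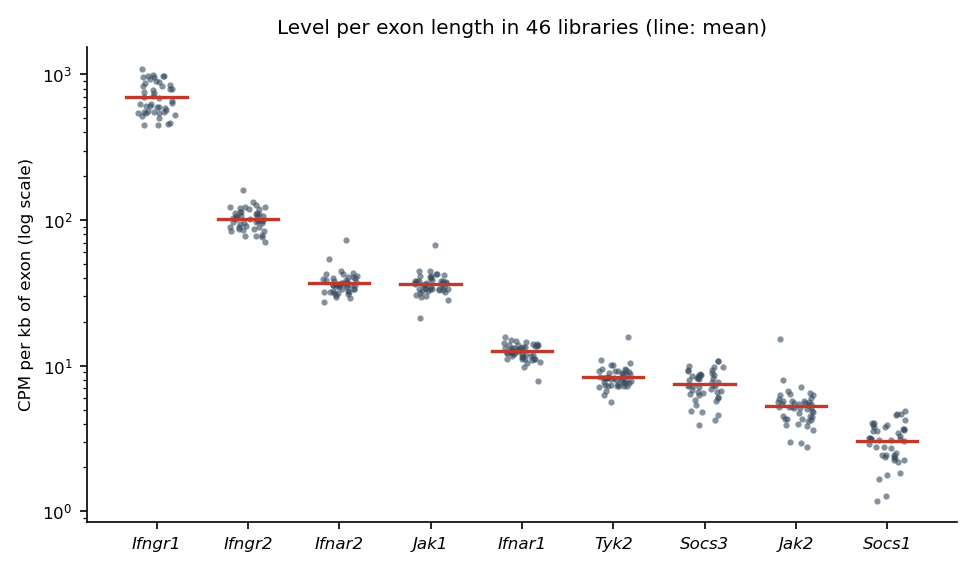
Level of each gene in CPM per kb of exon (log axis) in each library (points), with the mean as a line. Ifngr1 (703 CPM per kb) stands highest and Socs1 (3.02 CPM per kb) lowest, Ifnar2 and Jak1 share 1 level (37.1 and 36.6 CPM per kb), and the single Socs1 library at 0 counts cannot be drawn on this axis.

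The interferon gamma receptor chains were higher on HAMSAB than on zero fiber in WT mice. Ifngr1 (chromosome 10, 19591949 to 19610229, plus strand, GRCm38) had 1576 CPM at the lowest, 2653 at the median and 3122 at the highest in HAMSAB WT libraries, against 1327, 1635 and 1993 CPM in zero fiber WT libraries. All but 1 of the HAMSAB WT libraries (7 of 8) lay above the highest zero fiber WT library, and HAMSAB_WT_M replicate 4 lay inside the zero fiber range. The means were 2528 ± 467 CPM on HAMSAB (SD, n = 8) and 1639 ± 230 CPM on zero fiber (SD, n = 6), a log2 fold change of 0.65 ± 0.17 (SE), with an adjusted p of 0.0287 in edgeR's quasi-likelihood test. Among females, HAMSAB WT libraries had 2762, 2557, 2470 and 3122 CPM, against 1500, 1711, 1559 and 1993 CPM in zero fiber WT libraries, without overlap. Among males, HAMSAB WT libraries had 2749, 2216, 2772 and 1576 CPM, against 1742 and 1327 CPM in the 2 zero fiber WT libraries.

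Ifngr2 (chromosome 16, 91547072 to 91565623, plus strand), the accessory chain, had 392.4 CPM at the lowest, 460 at the median and 606 at the highest in HAMSAB WT libraries, against 297, 339 and 426 CPM in zero fiber WT libraries. The groups overlapped, with 5 of 8 HAMSAB WT libraries above every zero fiber WT library. The means were 462 ± 65 CPM on HAMSAB and 347 ± 45.7 CPM on zero fiber, a log2 fold change of 0.42 ± 0.12 (edgeR, adjusted p = 0.0469). These were the only members called in this comparison, 2 of 9, both higher. Of all tested genes, 2.19% were called there and 1.86% were called as higher, and by p the 2 genes ranked 161 and 247 of 12121. A change in the mix of cells and a change of RNA per cell cannot be told apart in bulk libraries.

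Both calls were lost when some single libraries were left out. Leaving out each of the 14 libraries in turn gave log2 fold changes of 0.55 to 0.75 for Ifngr1 and 0.36 to 0.47 for Ifngr2, but Ifngr1 was called in 6 of the 14 edgeR fits and Ifngr2 in 4. The highest adjusted p-values, 0.317 and 0.34, came without zero_fiber_WT_M replicate 2, followed by 0.106 and 0.164 without zero_fiber_WT_M replicate 1. Either fit leaves the WT males on zero fiber with 1 library, and the calls over all genes then fell to 1 and 12, against 265. Ifngr1 also missed the threshold without HAMSAB_WT_F replicates 1 and 4 or HAMSAB_WT_M replicates 1 and 3 (adjusted p = 0.0519, 0.0503, 0.0709 and 0.0662) and without zero_fiber_WT_F replicates 1 and 3 (0.0502 and 0.0631). Ifngr2 missed it without HAMSAB_WT_F replicates 1 and 2 (0.064 and 0.125), HAMSAB_WT_M replicates 1, 2 and 3 (0.0778, 0.104 and 0.0671) or zero_fiber_WT_F replicates 1, 3 and 4 (0.0605, 0.105 and 0.102).

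Library titles carry a number that the labels do not call a batch, lower than 2900 for 23 of them and 2900 or higher for 22. The remaining library, HAMSAB_AD_F replicate 4, has only zeros as its number. It was put in neither set and left out wherever these sets were used. In the lower-numbered libraries the mean log2 difference between HAMSAB and zero fiber WT mice was 0.74 for Ifngr1 (5 against 4 libraries without overlap, two-sided exact permutation p = 0.00794, the smallest possible) and 0.37 for Ifngr2 (exact p = 0.0476). In the higher-numbered ones it was 0.38 for Ifngr1 (3 against 2 libraries, exact p = 0.4) and 0.51 for Ifngr2 (exact p = 0.1, the smallest possible). With 3 against 2 libraries no p below 0.1 is possible. Ifngr1 overlapped there, with 1576 CPM at the lowest in HAMSAB WT and 1993 CPM at the highest in zero fiber WT libraries. The library at 1576 CPM was male, and both zero fiber WT libraries there were female. The HAMSAB WT females there, at 2470 and 3122 CPM, lay above both zero fiber females, at 1559 and 1993 CPM. These permutations did not take sex into account. Summed erythroid markers (Hba-a1, Hba-a2, Hbb-bs, Hbb-bt and Alas2, 4 of 5 tested) moved with the same contrast, at 8.88 to 140 CPM in HAMSAB WT libraries and 65.6 to 684 CPM in zero fiber WT libraries, and none of the 5 was at 0 in every library. The 9 perivascular macrophage markers, 8 of them tested and none at 0 throughout, summed to 188 to 258 CPM in HAMSAB WT and 213 to 322 CPM in zero fiber WT libraries. Singly, 4 of the 8 were higher and 4 lower on HAMSAB (median log2 fold change 0.04), and none was called. The part of these cells in the receptor result was not tested.

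In AD mice the receptor chains did not differ detectably between these diets. Ifngr1 had 1310 CPM at the lowest, 2094 at the median and 2377 at the highest in HAMSAB AD libraries, against 1288, 1799 and 2762 CPM in zero fiber AD libraries. Ifngr2 had 293, 356 and 449 CPM in HAMSAB AD libraries, against 266, 371 and 504 CPM in zero fiber AD libraries. The zero fiber AD range held the HAMSAB AD range for both genes, and the log2 fold changes were 0.01 ± 0.15 and -0.05 ± 0.11 (edgeR, adjusted p = 0.998 and 0.94). In that comparison 0.239% of all genes and none of the members were called. The diet difference in AD minus that in WT mice was -0.63 ± 0.22 for Ifngr1 and -0.46 ± 0.16 for Ifngr2, neither called by edgeR over all genes (adjusted p = 0.219 and 0.187), where 1.08% of genes were called. A difference between the genotypes in their diet response is therefore not established for either chain.

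On HAMSAB, AD mice had less of both chains than WT mice, short of the threshold. Ifngr2 averaged 362 ± 47.2 CPM in HAMSAB AD and 462 ± 65 CPM in HAMSAB WT libraries, a log2 fold change of -0.35 ± 0.10 (edgeR, adjusted p = 0.0698). Ifngr1 averaged 1972 ± 400 CPM in HAMSAB AD and 2528 ± 467 CPM in HAMSAB WT libraries, a log2 fold change of -0.36 ± 0.15 (adjusted p = 0.253). In this comparison 1.68% of genes were called. These values share the HAMSAB WT libraries with the diet comparison in WT mice. Markers of other cells went in both directions in the same contrast, none of them called. The 2 tested endothelial markers were higher (median log2 fold change 0.45). Of the tested monocyte and neutrophil markers 2 of 3 were higher, and of the oligodendrocyte markers 3 of 5. Of the astrocyte markers 2 of 3 were lower, as were all 3 tested neuronal markers. The 8 tested perivascular macrophage markers were all lower (median log2 fold change -0.61, sums of 170 to 222 CPM in HAMSAB AD and 188 to 258 CPM in HAMSAB WT libraries), as were the 4 tested erythroid markers (median -1.05, sums of 0.756 to 157 and 8.88 to 140 CPM). Their part in the receptor values was not tested.

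On the control diet Ifngr1 was spread widely among libraries. It averaged 1731 ± 406 CPM in control AD libraries (1271 to 2508) and 2117 ± 531 CPM in control WT libraries (1544 to 2803). 3 of the control WT libraries, of both sexes, stood at 2803, 2737 and 2669 CPM and the other 5 at 1544 to 1973 CPM. Over 45 libraries, leaving out that of lowest depth, the coefficient of variation of Ifngr1 was 25.5%, where counting error alone gives 1.57%. For Ifngr2 these were 16.7% and 3.53%. In WT mice the control means of both chains lay between those on HAMSAB and zero fiber, at 399 ± 46.5 CPM for Ifngr2. Against control, Ifngr1 in WT mice was at log2 0.25 ± 0.15 on HAMSAB and -0.39 ± 0.17 on zero fiber (edgeR, adjusted p = 0.485 and 0.574). For Ifngr2 the values were 0.21 ± 0.10 and -0.21 ± 0.12 (edgeR, adjusted p = 0.375 and 0.691).

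**Figure D2:**
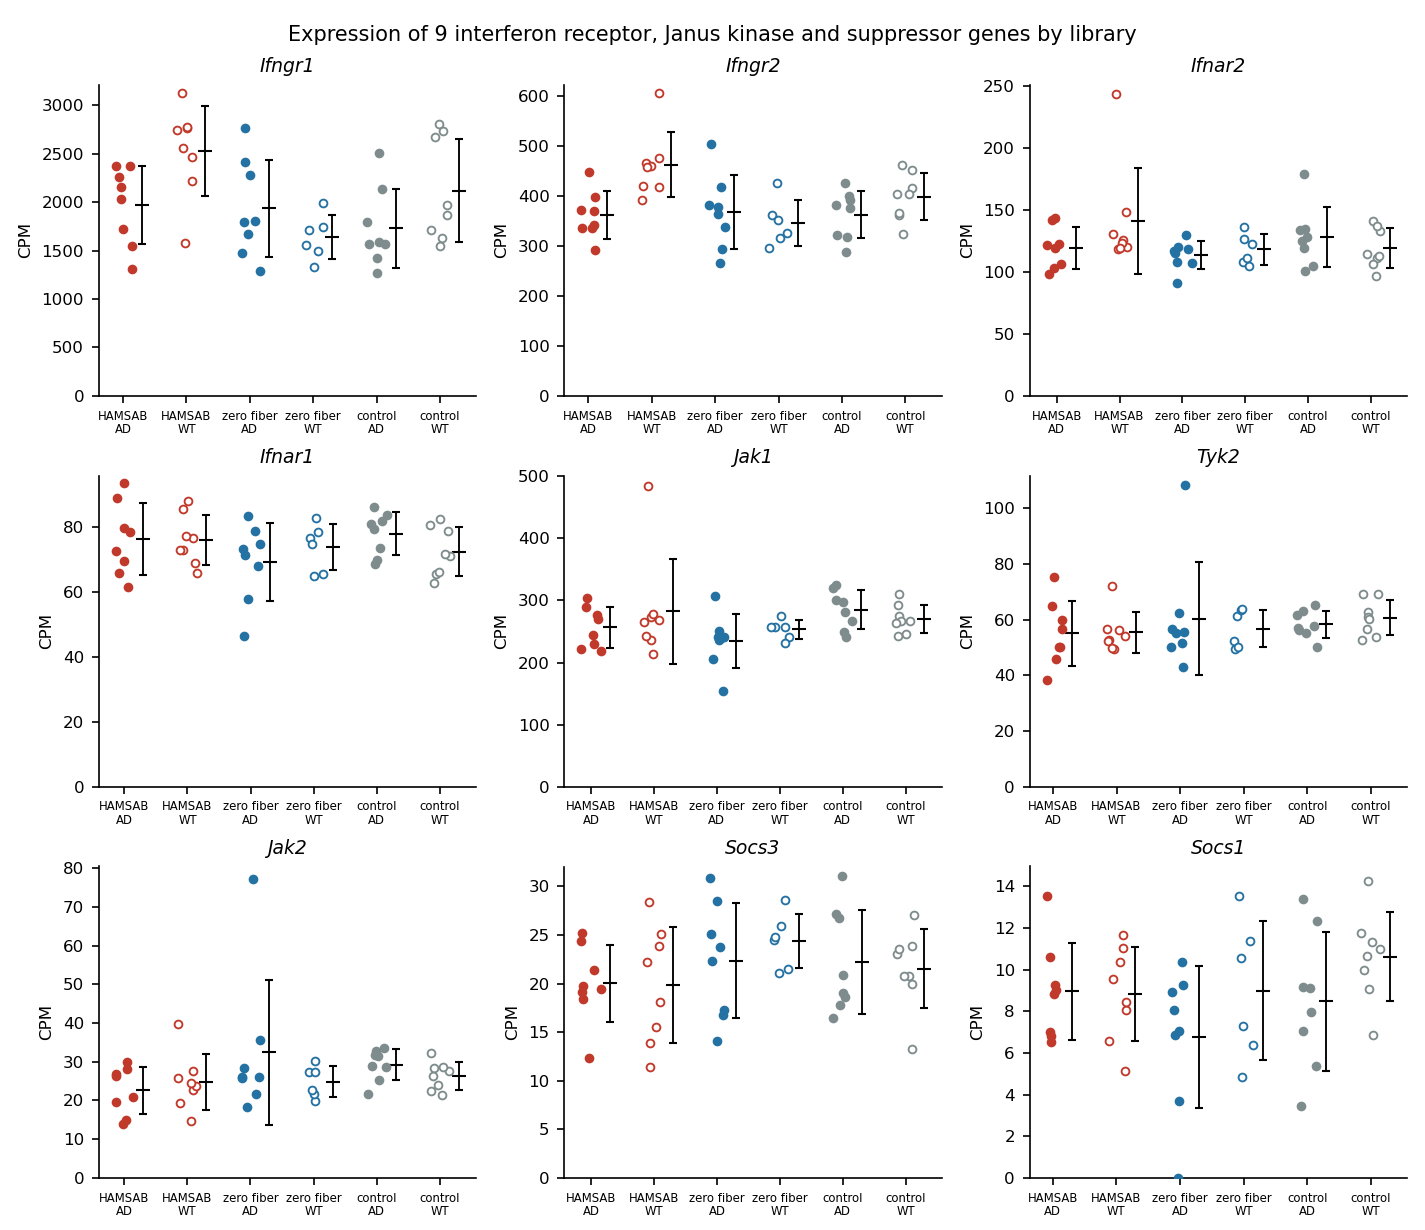
CPM of the 9 genes (y axes from 0) in each library, by diet and genotype. Filled points are AD and open points WT libraries, and bars give the mean ± SD. Ifngr1 and Ifngr2 stand higher in HAMSAB WT libraries (means of 2528 and 462 CPM) than in zero fiber WT libraries (1639 and 347 CPM), and single libraries stand far above their group for Ifnar2, Jak1, Jak2 and Tyk2.

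**Figure D3:**
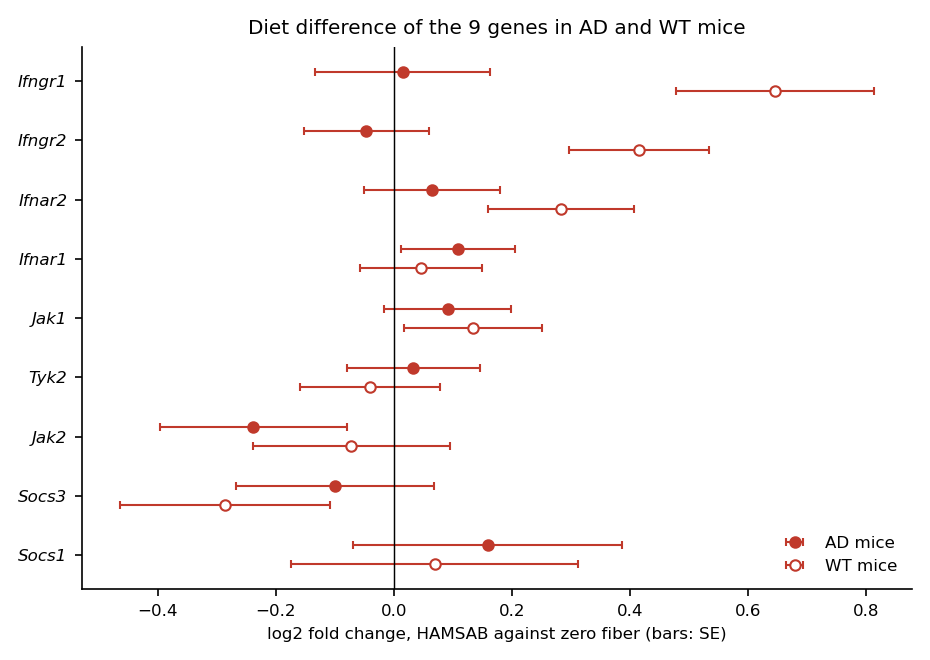
Log2 fold change of each gene, HAMSAB against zero fiber, in AD mice (filled) above WT mice (open), with bars for the SE of the edgeR fit. The interferon gamma receptor chains lie at 0.65 and 0.42 in WT and near 0 in AD mice, and the other 7 genes lie between -0.29 and 0.28.

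The type I receptor chains were not called in any comparison. Ifnar2 (chromosome 16, 91372783 to 91405589), the high-affinity binding chain, had 119 CPM at the lowest, 125 at the median and 244 at the highest in HAMSAB WT libraries, against 105, 117 and 136 CPM in zero fiber WT libraries. The groups overlapped apart from HAMSAB_WT_F replicate 3 and 1 other library. The log2 fold change was 0.28 ± 0.12 (edgeR, adjusted p = 0.315), and without a single library it ran from 0.15 to 0.34. Ifnar1 (chromosome 16, 91485238 to 91507441), its partner, was the steadiest of the 9. It averaged 76.4 ± 11.1 CPM in HAMSAB AD, 76.1 ± 7.67 in HAMSAB WT, 69.3 ± 12 in zero fiber AD, 74 ± 7.16 in zero fiber WT, 78.1 ± 6.54 in control AD and 72.5 ± 7.46 in control WT libraries. Its coefficient of variation of 10.6% stood beside 7.9% from counting alone. The genes Ifnar2, Il10rb, Ifnar1 and Ifngr2 lie in this order on the plus strand of chromosome 16. Il10rb, the shared chain of the interleukin-10 receptor, had a log2 fold change of -0.06 ± 0.11 between HAMSAB and zero fiber WT mice (edgeR, adjusted p = 0.913). Ifnar2 shares exonic bases with Gm21970, a protein-coding gene on the same strand whose span runs on into Il10rb. Gm21970 held 0 counts in all libraries together. No source used here states how reads in shared bases were counted, so the Ifnar2 level may leave some out.

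None of the Janus kinases was called. Jak1 (chromosome 4, 101152367 to 101265282), which serves both interferon receptors, had 218 CPM at the lowest, 257 at the median and 304 at the highest in HAMSAB AD, 155, 240 and 307 CPM in zero fiber AD, and 241, 290 and 325 CPM in control AD libraries. The largest difference of Jak1 was between zero fiber and control AD mice (log2 -0.24 ± 0.11, edgeR, adjusted p = 0.39), and these groups overlapped. In WT mice it averaged 283 ± 84.3 CPM on HAMSAB, 253 ± 15.2 on zero fiber and 271 ± 22.2 on control, the wide HAMSAB spread coming from 1 library at 484 CPM. Jak2 (chromosome 19, 29251828 to 29313080), the kinase of IFNGR2, averaged 22.6 ± 6.11 CPM in HAMSAB AD and 29.3 ± 4.06 CPM in control AD libraries, with 14 to 29.9 and 21.7 to 33.5 CPM as ranges. That log2 fold change of -0.38 ± 0.15 (adjusted p = 0.205) was the lowest p of the 9 genes in the comparison, where 0.0743% of genes were called. Tyk2 (chromosome 9, 21104068 to 21131243), the kinase of IFNAR1, averaged 55.2 ± 11.6 CPM in HAMSAB AD, 55.4 ± 7.26 in HAMSAB WT, 56.8 ± 6.79 in zero fiber WT, 58.2 ± 4.85 in control AD and 60.7 ± 6.29 in control WT libraries. Its mean of 60.4 ± 20.1 CPM in zero fiber AD libraries includes 108 CPM from 7 counts in the library of lowest depth. Jak1 and Tyk2 share exonic bases with Raver2 and 1700084C06Rik on the opposite strand, which held 222 reads and 1 read in all libraries together, and no source used here states the strand setting of the counting.

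The suppressors were low, and neither was called. Socs3 (chromosome 11, 117966079 to 117970047) had 11.4 CPM at the lowest, 20.2 at the median and 28.4 at the highest in HAMSAB WT libraries, against 21.1, 24.7 and 28.6 CPM in zero fiber WT libraries. The groups overlapped, and the log2 fold change was -0.29 ± 0.18 (edgeR, adjusted p = 0.578). Socs1 (chromosome 16, 10782240 to 10785536) averaged 8.96 ± 2.33 CPM in HAMSAB AD, 8.85 ± 2.25 in HAMSAB WT, 6.78 ± 3.4 in zero fiber AD, 9 ± 3.34 in zero fiber WT, 8.49 ± 3.33 in control AD and 10.6 ± 2.13 in control WT libraries. Over 45 libraries it rested on 3 to 72 counts per library, with a coefficient of variation of 29.2% beside 24.5% from counting, and for Socs3 these were 22% and 15.3%. The biological coefficient of variation in edgeR was 19.7% for Socs1 and 17.7% for Socs3, beside 20.7% for Ifngr1. It estimates the spread beyond counting but is drawn towards genes of similar level, so it is not each gene's own excess.

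In the other comparisons no member was called by edgeR, and 0 to 3 of the 9 had an unadjusted p under 0.05. The share of all genes called was 0.281% for HAMSAB against control and 0.00825% for zero fiber against control in WT mice, and 0.0578% for zero fiber against control in AD mice. With the genotypes averaged, it was 1.02% for HAMSAB against zero fiber, 4.52% for HAMSAB against control and 0.363% for zero fiber against control. For AD against WT it was 0% on control, 0.00825% on zero fiber and 0.0165% with the diets averaged, and it was 0.124% for M against F. For the diet differences in AD minus WT mice, HAMSAB against control and zero fiber against control, it was 0%, with 670 and 748 genes at an unadjusted p under 0.05. AD against WT on control, also at 0 calls, had 655 such genes, Ifngr1 among them (log2 -0.30 ± 0.15, adjusted p = 0.908). DESeq2 also called 0 genes in these 3 comparisons. Jak2 had the lowest p of the members between the sexes (29.9 ± 11.7 CPM in M and 24 ± 5.23 CPM in F libraries, log2 0.22 ± 0.09 for M against F, adjusted p = 0.36). The M mean includes the 77.3 CPM that 5 counts gave in the library of lowest depth. The F libraries include zero_fiber_AD_F replicate 1, whose Xist and Ddx3y levels went against its label.

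Downstream of the receptors, genes of the pathway were called in a comparison where no receptor, kinase or Socs gene was. Between HAMSAB and zero fiber with the genotypes averaged, 11 of 33 tested interferon-stimulated genes were called, all higher, where 1.02% of all genes were called. Of the 33, 32 were higher (median log2 fold change 0.76, beside 0.01 over all genes, of which 52.3% were higher). In the same contrast all 4 tested erythroid markers were called lower (median -2.26), and of 8 tested perivascular macrophage markers 7 were lower and 1 was called (median -0.31). Their part in these results was not tested. Called members included Slfn2, Lgals3bp and Ifit3b (0.87 ± 0.14, 0.76 ± 0.12 and 1.38 ± 0.27). Against control, also with the genotypes averaged, all 33 were lower on zero fiber (median -0.46, 2 called). On HAMSAB 27 of the 33 were higher than on control (median 0.31, 2 called). Of all genes 0.363% and 4.52% were called in these 2 comparisons. Between HAMSAB and zero fiber, 8 of 10 tested STAT and IRF genes were higher (median 0.08). Irf9, the DNA-binding subunit of the factor that type I interferon activates, was called at 0.37 ± 0.08 (adjusted p = 0.00821). Stat2 was at 0.27 ± 0.11 (adjusted p = 0.24) and Stat3 at 0.08 ± 0.08 (adjusted p = 0.734). In the same comparison 6 of the 9 receptor, kinase and Socs genes were higher, with a median of 0.11 and none called. Ifngr1 came nearest (0.33 ± 0.11, adjusted p = 0.154). It was called there, at an adjusted p of 0.0357, when 1 zero fiber AD male library, replicate 3, was left out.

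Other parts of the pathway were mixed. Among 15 tested suppressors and phosphatases other than Socs1 and Socs3, 7 were higher and 8 lower (median -0.08), and 1 was called, Usp18, an interferon-induced protease that blocks signalling at IFNAR2 (0.69 ± 0.17, adjusted p = 0.0259). That call was lost without HAMSAB_WT_M replicate 2, HAMSAB_WT_F replicate 2, zero_fiber_AD_M replicate 1 or zero_fiber_WT_M replicates 1 or 2 (adjusted p = 0.0522, 0.0523, 0.0589, 0.0635 and 0.116). Usp18 was also called for HAMSAB against control (0.58 ± 0.15, adjusted p = 0.0208), and in all 32 fits that left out 1 library there. Among 15 tested chains of other JAK-using receptors and Jak3, 9 were higher and 1 was called, Il2rg, the common gamma chain (0.69 ± 0.16, adjusted p = 0.0218). It was lost without zero_fiber_AD_M replicate 4 or zero_fiber_WT_M replicate 2 (adjusted p = 0.0546 and 0.123). Il2rg was also called for HAMSAB against control (0.54 ± 0.15, edgeR, adjusted p = 0.0255), and in 29 of 32 fits that left out 1 library there. Of 19 tested immediate early genes, 13 were higher and 2 were called, Egr2 higher (1.42 ± 0.35) and Jun lower (-0.37 ± 0.10) on HAMSAB than on zero fiber. Leaving out each of 30 libraries, Egr2 was called in 24 fits (1.26 to 2.41, adjusted p up to 0.126) and Jun in 12 (adjusted p up to 0.123), both highest without zero_fiber_WT_M replicate 2. The Egr2 value of 2.41 was that without zero_fiber_AD_M replicate 3. Against control, Jun and Ier5 were called lower on HAMSAB (-0.42 ± 0.09 and -0.40 ± 0.10, edgeR, adjusted p = 0.00646 and 0.0157). Both calls held in all 32 fits that left out 1 library there, where 4.52% of all genes were called.

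**Figure D4:**
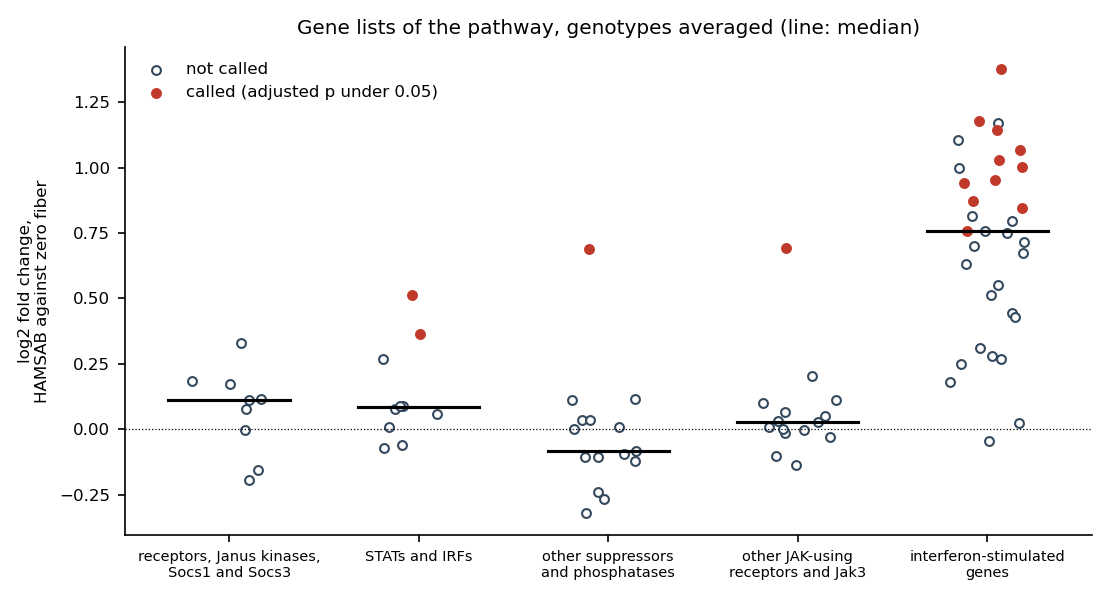
Log2 fold change of each tested gene, HAMSAB against zero fiber with the genotypes averaged, in 5 gene lists, with the median of the list as a line and called genes filled. The medians are 0.11 for the 9 genes described here and 0.76 for the interferon-stimulated genes.

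Within each genotype, targets and receptors were set side by side. In AD mice 32 of 33 interferon-stimulated genes were higher on HAMSAB than on zero fiber (median 0.75) and 4 were called, where 0.239% of all genes and none of the 4 receptor chains were. Leaving out each of 16 libraries, Lgals3bp was called in 16 fits, Sp100 in 15, Ifi27l2a in 10 and Slfn2 in 9. Without HAMSAB_AD_M replicate 2 the adjusted p was 0.0755 for Sp100, 0.0901 for Ifi27l2a and 0.113 for Slfn2. Ifi27l2a and Slfn2 were also lost without HAMSAB_AD_F replicates 1 or 3, zero_fiber_AD_F replicates 2 or 3 or zero_fiber_AD_M replicate 1, and Slfn2 without zero_fiber_AD_M replicate 4. The 8 tested perivascular macrophage markers were all lower in this contrast (median -0.76, sums of 170 to 222 CPM in HAMSAB AD and 183 to 464 CPM in zero fiber AD libraries). The 4 tested erythroid markers were all lower too (median -2.35, edgeR, lowest adjusted p = 0.0621), as were the 3 neuronal ones (median -0.31). All 5 tested oligodendrocyte markers were higher (median 0.07), as were 2 of 3 astrocyte, 1 of 3 monocyte and neutrophil and 1 of 2 endothelial markers. None of these markers was called, and their part was not tested. In WT mice 31 of the 33 interferon-stimulated genes were higher on HAMSAB than on zero fiber (median 0.81). Of these 2 were called, where 2.19% of all genes were, beside the 2 interferon gamma receptor chains. Leaving out each of 14 libraries, Slfn2 was called in 11 fits and Rtp4 in 4, with the highest adjusted p (0.139 and 0.349) without zero_fiber_WT_M replicate 2. Slfn2 was also lost without zero_fiber_WT_M replicate 1 or HAMSAB_WT_F replicate 2. The diet difference in AD minus that in WT mice was called for none of the 33 genes by edgeR (lowest adjusted p = 0.521). Set against control in WT mice, 19 of the 33 were higher and 14 lower on HAMSAB (median 0.07). On zero fiber all 33 were lower than on control in WT mice (median -0.55). In AD mice 31 were higher on HAMSAB than on control (median 0.43), and 28 were lower on zero fiber (median -0.26). None was called in these 4 comparisons with control. The ligands themselves were almost absent. Of 21 interferon genes in the table none passed the filter, 15 had 0 counts, and the others had 30 counts among 116142555 in all libraries. Interferon gamma (Ifng) had 0 counts, which allows up to 0.0258 CPM over all libraries (3 counts, counting error only), and interferon beta (Ifnb1) had 16 counts in 10 libraries.

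Across libraries no member followed the level of interferon-stimulated genes. Over 45 libraries, Pearson's r with the mean log2 CPM of these genes ran from -0.0549 (Socs3) to 0.227 (Ifngr2). With the mean of immediate early genes it ran from -0.0734 (Tyk2) to 0.286 (Socs3). None of the 18 relations was called, the lowest adjusted permutation p being 0.616. With deviations from the means of the 12 groups by diet, genotype and sex, 1 was called, Ifngr2 with the immediate early genes (r = 0.479, adjusted permutation p = 0.0158). That r was 0.262 on the values themselves and 0.326 and 0.143 within the lower-numbered and the higher-numbered libraries.

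The 2 chains of the interferon gamma receptor varied together. Of the 36 pairs among the 9 genes, 1 was called over 45 libraries, Ifngr1 with Ifngr2, with Pearson's r of 0.637 and Spearman's rho of 0.66 (permutation p = 1e-05 for each, the smallest that the permutations can give, adjusted p = 0.00036). Pearson's r was 0.65 without the 2 libraries farthest from the median of Ifngr1, 0.656 and 0.627 within the lower-numbered and the higher-numbered libraries (adjusted p = 0.0158 and 0.0828), and 0.454 on deviations from group means (adjusted p = 0.0353). On those deviations 1 other pair was called, Ifnar1 with Tyk2 (r = 0.449, adjusted p = 0.0353), whose r was 0.385 on the values themselves (adjusted p = 0.0777) and 0.726 and -0.0302 within the lower-numbered and the higher-numbered libraries. The genes Ifngr1 and Ifngr2 lie on different chromosomes. Each had a higher r with genes outside the 9, such as 0.894 for Ifngr1 with Yme1l1 and 0.839 for Ifngr2 with Ccdc85c. A high r was therefore not particular to this pair. The chains of the type I receptor, Ifnar1 and Ifnar2, had r of 0.0155 (permutation p = 0.92, adjusted p = 0.952).

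**Figure D5:**
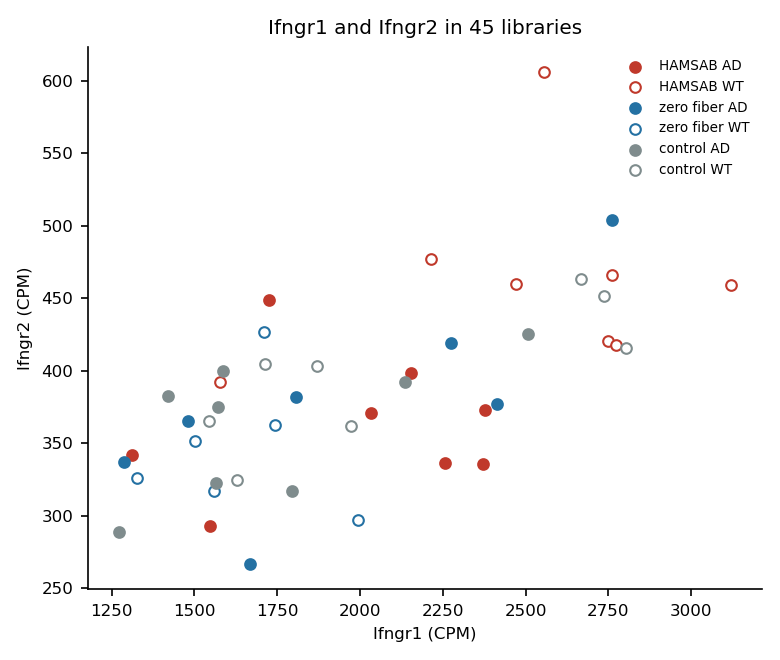
CPM of Ifngr2 (y axis) against CPM of Ifngr1 (x axis) in 45 libraries, filled for AD and open for WT mice, by diet; axes do not start at 0. Libraries high in one chain tend to be high in the other (Pearson's r = 0.637), and HAMSAB WT libraries lie mostly at the upper right.

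The promoters of the pair, which moved together, are shown beside those of the suppressors, which are textbook targets of the pathway. Each is the 250 bases before the start that the RefSeq promoter table uses (GRCm38.p6), 5′ to 3′ on the gene's own strand, and all 9 genes had a window. The gene coordinates given above are from GENCODE, and for Socs3 the RefSeq start lies inside them, so its window does too. Capitals mark the letters TTCNNNGAA, an element bound by STAT dimers, or GAAANNGAAA, the core of the interferon-stimulated response element, sought on both strands. Other spacings of these letters were not sought.
Ifngr1 (chr10:19591699-19591948, + strand): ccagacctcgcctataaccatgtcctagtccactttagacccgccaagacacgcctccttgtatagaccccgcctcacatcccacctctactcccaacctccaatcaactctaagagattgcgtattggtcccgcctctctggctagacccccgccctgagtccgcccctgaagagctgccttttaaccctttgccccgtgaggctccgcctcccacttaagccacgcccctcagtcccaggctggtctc
Ifngr2 (chr16:91546809-91547058, + strand): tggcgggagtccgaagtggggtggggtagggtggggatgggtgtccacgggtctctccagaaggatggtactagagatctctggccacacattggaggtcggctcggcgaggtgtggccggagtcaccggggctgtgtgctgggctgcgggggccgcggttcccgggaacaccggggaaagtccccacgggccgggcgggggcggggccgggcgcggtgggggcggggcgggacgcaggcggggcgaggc
Socs1 (chr16:10785537-10785786, - strand): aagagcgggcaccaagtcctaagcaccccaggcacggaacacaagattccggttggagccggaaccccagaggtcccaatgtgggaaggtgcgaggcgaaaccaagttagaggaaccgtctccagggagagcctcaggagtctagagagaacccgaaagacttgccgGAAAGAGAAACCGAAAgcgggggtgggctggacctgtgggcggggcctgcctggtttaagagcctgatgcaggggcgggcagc
Socs3 (chr11:117969367-117969616, - strand): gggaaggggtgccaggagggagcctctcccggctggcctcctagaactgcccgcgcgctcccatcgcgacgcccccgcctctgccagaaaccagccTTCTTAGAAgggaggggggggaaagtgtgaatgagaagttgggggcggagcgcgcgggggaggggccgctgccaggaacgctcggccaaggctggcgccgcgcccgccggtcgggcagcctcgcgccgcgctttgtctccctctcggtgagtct
The Ifngr1 and Ifngr2 windows held neither motif, and their GC contents were 59.2% and 74%. The Socs1 window held GAAANNGAAA at 83 to 74 and at 77 to 68 bases before the RefSeq start, 2 matches that overlap, a motif found in 2.98% of 32851 promoter windows of the same length. The Socs3 window held TTCNNNGAA at 154 to 146 bases before the RefSeq start, and the Ifnar2 window, not printed, held it at 214 to 206, a motif found in 7.02% of the windows. The other windows held neither. No binding was measured here, and a match is only a match of letters.

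Ifngr1 had close companions among other genes. Over 45 libraries and 5042 genes of at least 5 mean log2 CPM, its highest Pearson's r were with Yme1l1, a protease of the inner mitochondrial membrane (0.894), and Skp1a, a subunit of ubiquitin ligases (0.875). Ifngr2 was most like Ccdc85c (0.839) and Eif4e2, a cap-binding protein (0.83). These values of Ifngr1 are higher than its r with Ifngr2. For Socs3 and the kinases the highest r were lower, 0.677 for Socs3 with Trib1, a pseudokinase, 0.679 for Jak1 with Cyth1, 0.608 for Jak2 with Foxj2 and 0.497 for Tyk2 with Dlst. For Ifnar2 it was 0.681 with Imp3 and for Ifnar1 0.529 with Mfsd11. The points share libraries and depth, and these values are descriptions.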

How the data were processed

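Per the labels' protocols, RNA from microglia was extracted with an RNeasy Micro kit on a QIAcube and made into Illumina libraries. What the authors deposited is a single table of raw counts per gene symbol, 1 column for each library. Per the submitters' processing notes, the tools were STAR 2.5.2b and featureCounts 1.5.2 with GRCm38 (mm10). No source used here states the annotation release, strand setting or treatment of multiply mapped reads. Library totals lay between 52114 and 6950429 counts.

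All 17 comparisons came from 1 fit over 46 libraries with a mean for each of 12 groups (R 4.3.3, edgeR 4.0.16, filterByExpr, TMM factors from 0.918 to 1.25, quasi-likelihood F test), sexes averaged equally. Genes were called at a Benjamini-Hochberg adjusted p under 0.05 over 12121 genes. CPM are counts over TMM-adjusted library size, and levels are mean ± SD. Intervals and floors cover counting error only. Exon lengths and gene coordinates are from GENCODE M21. Correlations used log2 CPM with a prior count of 2, 45 libraries and 100000 two-sided permutations, with Benjamini-Hochberg adjustment over 18 relations or 36 pairs. The fit was tried on simulated counts. Named beside the 9 members are up to 4 called genes per list and comparison by p, further pathway genes and the genes of highest r. Members and gene lists were chosen with earlier results of these data known. Alternatives were DESeq2 size factors, no filter, DESeq2 1.42.0, limma 3.58.1 voom with quality weights, a title-series term, only the libraries compared, leaving out 2 doubted libraries or each library in turn and, chosen after seeing the data, removing each library's trend on exon length. The 36 pairs were also added after seeing the data. No library was left out of the fit reported. A few results for genes on the lists are not reported here.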

Additional observations from a re-analysis of the deposited data

Results flagged for a closer look

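In 7 of the 54 sets of libraries formed by 9 genes and 6 diet and genotype groups, 1 library stood apart from the rest by Dixon's test at the 95% level, where chance marks about 1 group in 20. Ifnar2 was at 244 CPM in HAMSAB_WT_F replicate 3, the next library of the group being at 148 CPM, and at 179 CPM in control_AD_F replicate 4, next to 135 CPM. Jak1 was at 484 CPM in HAMSAB_WT_M replicate 4, next to 278 CPM, on 632 counts. Ifngr2 was at 606 CPM in HAMSAB_WT_F replicate 2, next to 477 CPM, and without this library its difference between HAMSAB and zero fiber WT mice was 0.36 on the log2 scale, with an adjusted p of 0.125 in edgeR. Tyk2 was at 72.2 CPM in HAMSAB_WT_F replicate 4, next to 56.5 CPM. In zero_fiber_AD_M replicate 2, the library of lowest depth, Jak2 was at 77.3 CPM from 5 counts and Tyk2 at 108 CPM from 7 counts, next to 35.8 and 62.3 CPM.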

How the results depend on the processing

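The number of called members was the same under 130 of 140 alternatives other than leaving out a library. Every comparison but HAMSAB against zero fiber in WT mice started from 0 called members, so most of these are a 0 that stayed at 0. For HAMSAB against zero fiber in WT mice the number was 2. It was 1 with no filter or with only the libraries compared, where Ifngr2 was lost (edgeR, adjusted p = 0.0508 and 0.0571). It was 1 in place of 0 with no filter or voom weights for HAMSAB against zero fiber with genotypes averaged, with no filter for the AD minus WT difference, and with DESeq2 size factors, DESeq2, voom weights or only the libraries compared for AD against WT on HAMSAB (Ifngr2, adjusted p = 0.0404, 0.0183, 0.0108 and 0.0468). Of the 18 relations with gene means, 1 in place of 0 was called on deviations from group means. The cause was not tested. Leaving out each library gave 0 to 2 called members for HAMSAB against zero fiber in WT mice, 0 in 7 of 14 fits, 0 to 1 with genotypes averaged and 0 to 1 for AD against WT on HAMSAB, and 0 elsewhere. Calls over all genes in the WT comparison were 265, but 505 with no filter. The differences of 5 members that were not called changed sign in some settings. Ifngr1 between HAMSAB and zero fiber AD mice was 0.01, -0.0548 without the 2 doubted libraries, -0.000391 with the length trend removed and -0.079 to 0.133 leaving out each library. Leaving out each library gave -0.12 to 0.0744 for Ifngr2 there, and in WT mice -0.0387 to 0.135 for Ifnar1, -0.0976 to 0.0148 for Tyk2 and -0.168 to 0.393 for Socs1. No paired analysis was possible because the replicate numbers are in accession order and the titles carry a different number for each library.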
